A study of Zea mays with 96 samples.

Results

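The comparison described here was between endosperm of the maize nkd2 single mutant and wild-type (WT) endosperm at 16 days after pollination (DAP). It was made by taking the 4 libraries that the sample titles give as nkd2 at 16 DAP and the 4 given as WT at 16 DAP, so it used 8 of the 96 libraries of the series. The series covers 8 genotypes, which are WT and every combination of mutations in nkd1, nkd2 and o2, at 3 timepoints (8, 12 and 16 DAP). The nkd2 plants were homozygous for a null allele of nkd2 and had normal nkd1 and o2 alleles, and the WT plants had normal alleles of the 3 genes. Both groups were in the W22 inbred background. All lines came from a cross of an nkd1 nkd2 double mutant with an o2 mutant, by selfing a triple heterozygote, so chromosome segments of the parents could still segregate beside the named alleles. Each library was made from a pool of 3 endosperms of 1 ear, with 4 ears per genotype, so that the P-values rest on the spread between ears. In the main fit this spread was estimated over the 32 libraries of all 8 genotypes at 16 DAP.

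The endosperm is the tissue of the cereal kernel that stores starch and protein. Its outer layer, the aleurone, and its bulk, the starchy endosperm, take separate fates, and the NAKED ENDOSPERM genes nkd1 and nkd2, a duplicated pair that encodes INDETERMINATE DOMAIN zinc finger transcription factors, are needed for a normal aleurone. OPAQUE2 (o2) encodes a bZIP transcription factor of the starchy endosperm that activates genes of zeins, the main storage proteins of the maize kernel. The comparison addresses what loss of nkd2 alone did to the endosperm transcriptome during grain filling, when its duplicate was present.

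The libraries held 31327665 to 48394247 reads on genes in nkd2 and 31916039 to 39998562 in WT, which was 71.9% to 73.4% of the counted reads in nkd2 and 71.7% to 72.6% in WT. Levels are given as CPM, which are counts relative to a library size scaled by trimmed mean of M-values, and fold changes are log2 fold changes (log2FC) of nkd2 over WT. The libraries carried a mark of filling endosperm, since the 13 annotated zein genes alone took 12.8% to 13.5% of the gene reads in nkd2 and 13.5% to 14.4% in WT. Only 883 of the 46430 genes in the files had a symbol or description in the sources used, so most genes were counted and not named. The share of reads that did not align was 4.67% to 5.02% in nkd2 and 5.35% to 5.78% in WT, with no overlap (two-sided exact permutation test, P = 0.0286, and 4 against 4 libraries cannot give a smaller one).

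Replicate 4 of nkd2 stood apart from the other nkd2 libraries. Its Euclidean distance from the mean of the other 3, in log2 CPM over all tested genes, was 72.1, against 46.5 to 51.1 for replicates 1 to 3, and the same distances in WT were 48.2 to 61.6. It lay alone, high or low, in 933 of 14103 genes that averaged 100 counts or more (6.62%), whereas each other nkd2 library lay alone in 90 to 117 genes. Replicate 4 of WT lay alone in 385 genes (2.73%). Values without nkd2 replicate 4 are therefore given beside those results below that it moved most.

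The mutated gene was nearly silent in the mutant. nkd2 (Zm00001d026113) had 0.429, 0.156, 0.252 and 0.169 CPM in the 4 nkd2 libraries, against 27.2, 28.8, 34.4 and 25.9 CPM in the WT libraries. Every nkd2 library was far below every WT library, and the log2FC was -6.89 ± 0.34 (SE, n = 4 each, edgeR adjusted P = 5.98e-15). The genotype labels and the transcripts of the mutated gene thus pointed the same way in all 8 libraries.

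The duplicate gene, nkd1, was higher in nkd2. nkd1 (Zm00001d002654) had 168, 156, 173 and 192 CPM in nkd2, against 115, 121, 131 and 105 CPM in WT. The groups did not overlap, and the rise was modest, with a log2FC of 0.55 ± 0.14 (adjusted P = 0.00803). Without replicate 4 of both groups, the log2FC was 0.44 (adjusted P = 0.0736). The corresponding comparison at 12 DAP gave a log2FC of -0.02 (adjusted P = 0.943), and at 8 DAP it gave 0.27 (adjusted P = 0.246). In the o2 background, nkd1 was lower when nkd2 was lost, with a log2FC of -1.44 for nkd2 o2 over o2. The difference of the effect between the o2 and the WT backgrounds was -1.99 on the log2 scale and passed its test (adjusted P = 3.87e-08).

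The o2 transcript was below the WT range in 3 of the nkd2 libraries. o2 (Zm00001d018971) had 535, 547, 570 and 878 CPM in nkd2, against 1031, 921, 853 and 960 CPM in WT. Replicates 1 to 3 of nkd2 lay below every WT library, while replicate 4 lay within the WT range. The log2FC of -0.57 ± 0.23 did not pass the test (adjusted P = 0.102). Without nkd2 replicate 4 it was -0.77 (adjusted P = 0.0277). Outside this comparison, o2 fell in nkd1 nkd2 relative to nkd1 (log2FC -1.14, adjusted P = 0.000477), and it rose in nkd2 relative to WT at 8 DAP (log2FC 1.94, adjusted P = 0.000374).

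**Figure D1:**
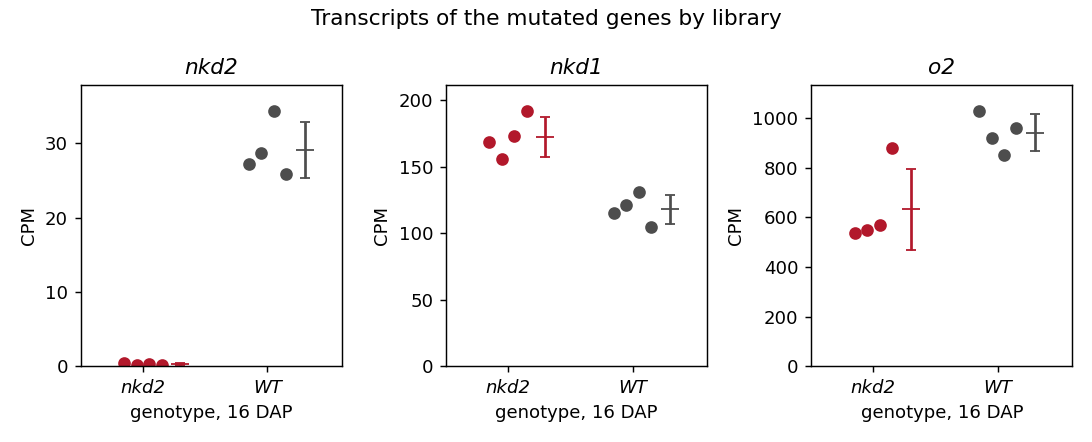
Levels of nkd2, nkd1 and o2 (CPM, linear axes from 0) in each nkd2 and WT library at 16 DAP, with points for libraries and the bar beside them for the mean and SD of 4 libraries. nkd2 transcripts stayed under 0.5 CPM in the mutant, nkd1 was higher in all 4 nkd2 libraries, and 1 nkd2 library had o2 at 878 CPM, within the WT range.

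Across the transcriptome, 1040 of 24239 tested genes were differentially expressed genes (DEGs), defined by an adjusted P below 0.05 and an absolute log2FC above 1, which was 4.29% of the genes tested. Genes that fell outnumbered those that rose, with 662 lower (2.73%) and 378 higher (1.56%). The median log2FC of all tested genes was 0.01. The excess of lower genes lay in the DEGs: with the adjusted P alone, 1637 genes were higher (6.75%) and 1706 lower (7.04%). The 4 nkd2 and 4 WT libraries did not overlap in 856 of the DEGs, and they did not overlap in 18.2% of all tested genes.

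The lower genes reached further into the abundant transcripts. Among genes whose mean over the 2 groups exceeded 100 CPM, 26 DEGs were lower and 3 were higher, out of 1445 tested. Above 10 CPM, 141 were lower and 56 higher, out of 9829 tested. The 10 most abundant DEGs were all lower, with log2FC between -3.11 and -1.0, and none of them had a name in the sources used. Below 1 CPM lay 245 of the lower and 149 of the higher DEGs, out of 6882 tested. DEGs were thus a smaller share of the tested genes above 10 CPM than the 4.29% over all genes, and a larger share below 1 CPM. The non-coding genes with ENSRNA identifiers gave 5 lower DEGs and no higher one among 221 tested, close to the 2.73% of all genes that were lower. The 33 tested mitochondrial genes with ZeamM identifiers gave none. Some DEGs had reads in only 1 of the groups: 43 higher DEGs had no read in any WT library, and 57 lower DEGs had no read in any nkd2 library. Genes could enter the fit through other genotypes, and the number of such genes among all tested genes is not given here.

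**Figure D2:**
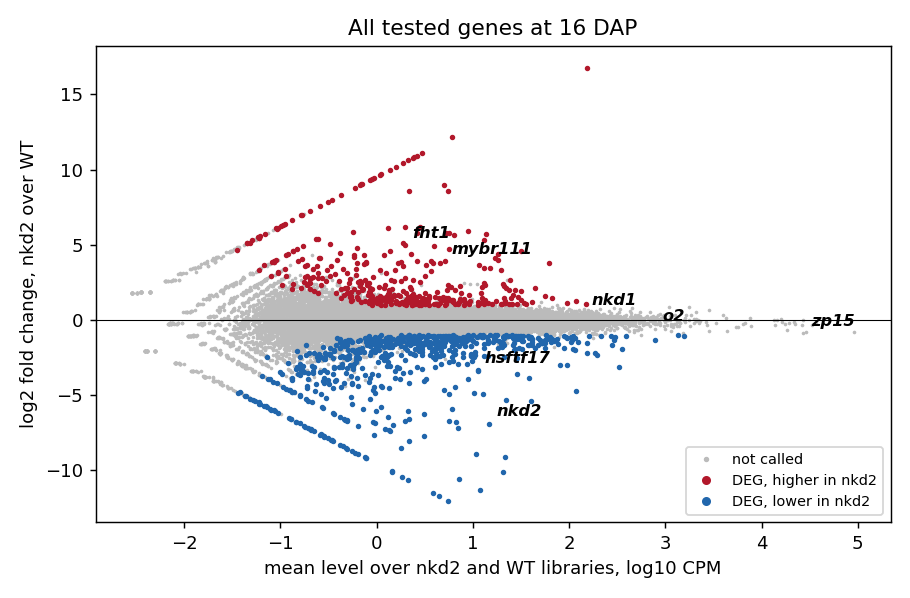
Log2FC of nkd2 over WT (y axis) against the mean level over both groups (x axis, log10 CPM) for the tested genes at 16 DAP, with 378 higher DEGs in red and 662 lower DEGs in blue. Lower DEGs extend further to the right, with 26 lower and 3 higher above 100 CPM.

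The most abundant transcripts took a smaller share of the reads in the mutant. The 10 genes with the most reads in each library, which need not be the same genes, took 25.4% ± 1.02 of the gene reads in nkd2 and 31.2% ± 0.465 in WT (SD, n = 4 each). The difference was -5.80 percentage points, with no overlap (two-sided exact permutation test, P = 0.0286, adjusted over 3 shares 0.0429). The gene with the most reads, Zm00001d020592, for which no name was available, took 6.06% ± 0.699 of the reads in nkd2 and 9.30% ± 0.408 in WT. Its log2FC was -0.80 ± 0.17 (adjusted P = 0.00215), so it fell without reaching the limit for a DEG. Zm00001d005793, also without a name and among the 10 genes with the most reads in WT, fell likewise (log2FC -0.82 ± 0.16, adjusted P = 0.000701). In a bulk sample, fewer cells of a type and less RNA per cell cannot be told apart.

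The genes described as zeins did not pass the test in this comparison. They were the 13 genes whose description held the word zein, so zein genes without one, such as fl2 below, were not counted. All 13 were tested, and none reached an adjusted P below 0.05, against 4.29% DEGs and 13.8% by adjusted P over all genes. By edgeR none had an unadjusted P below 0.05 either, and DESeq2 called 0 of them DEGs. Of the 13, 5 had a log2FC above 0 and 8 below it, with a median of -0.10 beside 0.01 for all genes, and the values ran from -0.89 to 0.51. Their reads summed to 13.3% ± 0.315 of the total in nkd2 and 13.8% ± 0.372 in WT, a difference of -0.57 percentage points (two-sided exact permutation test, P = 0.0571). Without WT replicate 3 the difference was -0.68 percentage points (exact P = 0.0286).

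The precision of the zein estimates was set by the other genotypes of the fit. The median SE of the 13 log2FC was 0.82 when the 32 libraries of 16 DAP shared 1 estimate of the spread, and 0.09 when only the 8 nkd2 and WT libraries were fitted. In those 8 libraries, the beta-zein gene zp15 (Zm00001d035760) had 22430, 15693, 16523 and 21787 CPM in nkd2, against 36666, 35668, 35897 and 33296 CPM in WT. Its groups did not overlap, and its log2FC was -0.89 ± 0.54 (adjusted P = 0.300) in the 32-library fit and -0.89 (adjusted P = 0.00058) in the 8-library fit. Of the 13, the 8-library fit called 1 further zein lower, an unnamed Z1A alpha-zein (Zm00001d049476), and 1 higher, az19d2, all 3 within the limit of a 2-fold change. The floury2 gene (fl2, Zm00001d049243), whose product is an alpha-zein, had a mean of 30009 ± 1793 CPM in nkd2 and 37353 ± 3148 CPM in WT (SD, n = 4 each), a log2FC of -0.32 (adjusted P = 0.771) in the 32-library fit and -0.32 (adjusted P = 0.0284) in the 8-library fit.

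The few genes of starch and sugar metabolism that could be identified stayed within the limits. Other starch genes sought by symbol, such as sh2, bt2 and wx1, had no match in the sources used. Neither of the pyruvate orthophosphate dikinase genes, whose enzyme interconverts pyruvate and phosphoenolpyruvate, passed. pdk1 averaged 3549.6 ± 334 CPM in nkd2 and 2197 ± 238 CPM in WT (SD, n = 4 each), with a log2FC of 0.69 (adjusted P = 0.0807). For pdk1 the groups did not overlap, and it passed by adjusted P in 2 of 16 alternative settings. The log2FC of pdk2 was 0.03. Starch branching enzyme IIa (sbe3), starch synthase 5 (ss5) and the cell wall invertase incw4 had log2FC of 0.16, 0.13 and 0.33. None of them passed, though ss5 passed by adjusted P in 1 of 16 alternative settings.

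Of the 21 genes that the study named as hubs of its coexpression network, most of which encode transcription factors, 20 were tested. Only hsftf17 was a DEG, and it was lower, so that 5% were called beside 4.29% of all genes. The study chose these genes on libraries that include the present ones. Their median log2FC was -0.02, beside 0.01 for all genes. By adjusted P alone, 2 others were higher, so that 3 of 20 passed where 13.8% of all genes did. tubtf6, a Tubby-like F-box protein gene, had 14.0, 12.5, 12.6 and 12.1 CPM in nkd2, against 7.58, 9.02, 9.74 and 8.17 CPM in WT, with no overlap and a log2FC of 0.57 ± 0.12 (adjusted P = 0.00125). abi39, which encodes a B3 domain repressor of the VAL type, had a log2FC of 0.97 ± 0.31 (adjusted P = 0.0314), and without nkd2 replicate 4 this was 0.78 (adjusted P = 0.104). The other 17 did not pass, and 5 of the 20 had an unadjusted P below 0.05. The hub dof42 was in the fit through other genotypes and had no read in any of the 8 libraries, and arf29 did not pass the filter on low counts.

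**Figure D3:**
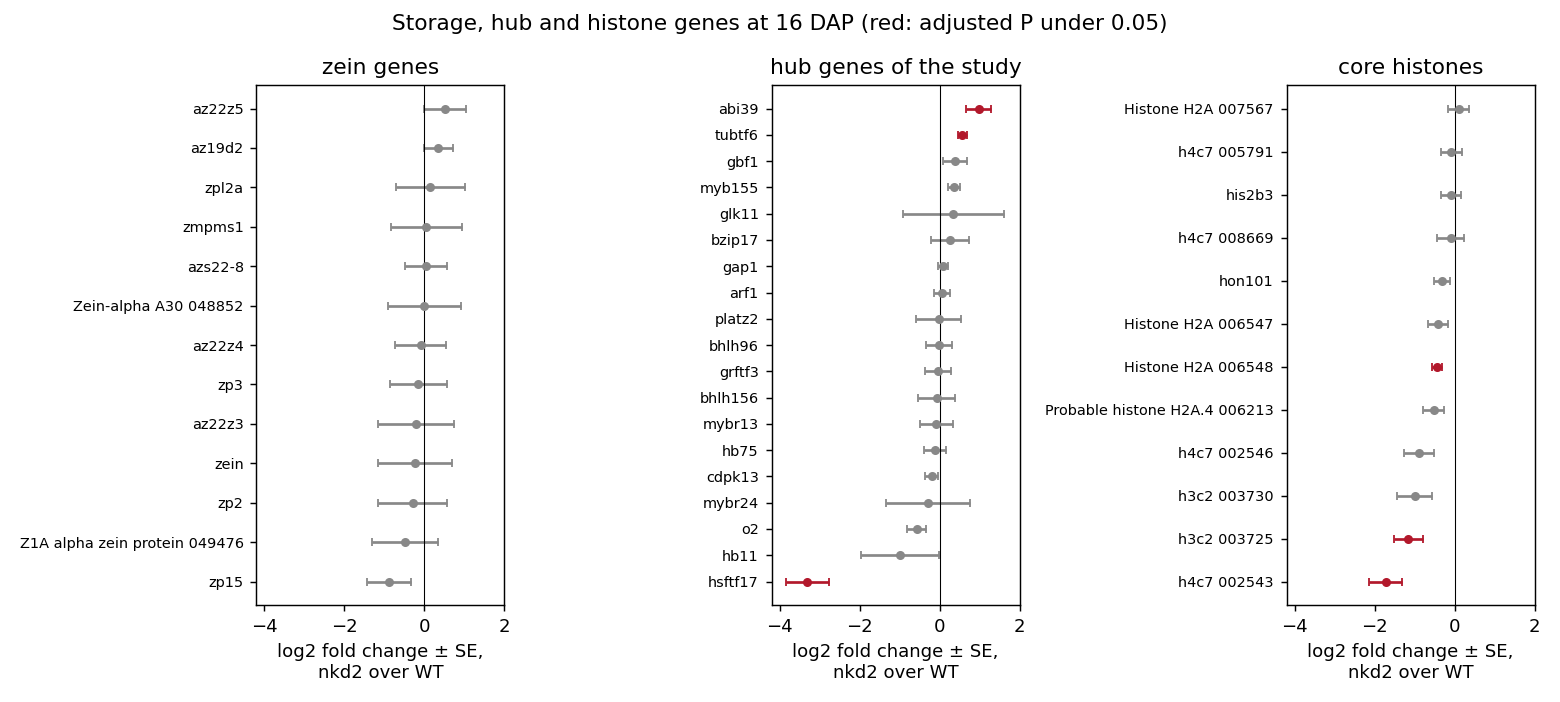
Log2FC of nkd2 over WT (x axis, with SE) for the 13 zein genes, 19 hub genes of the study (dof42, with no reads, is not drawn) and 12 histone genes (core histones and hon101, a histone H1 gene) at 16 DAP, with red for an adjusted P below 0.05. The zein estimates lie between -0.89 and 0.51 with wide errors, hsftf17 is the hub gene farthest from 0, and 11 of the 12 histone genes lie below 0.

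The hub that fell encodes a heat stress transcription factor. hsftf17 (Zm00001d033987), which resembles heat stress factor A-6b, had 1.86, 2.52, 3.26 and 0.565 CPM in nkd2, against 19.3, 17.7, 10.4 and 34.4 CPM in WT. The groups did not overlap, and the log2FC was -3.31 ± 0.54 (adjusted P = 9.94e-05). Without nkd2 replicate 4, its lowest library, the log2FC was -2.99 (adjusted P = 0.000521). The same fall was found in nkd1 nkd2 relative to nkd1 (log2FC -3.31, adjusted P = 3.98e-05), which shares no library with the comparison of nkd2 and WT. In the o2 background the log2FC was 0.64 (adjusted P = 0.467), and the difference between the o2 and WT backgrounds, 3.95 on the log2 scale, passed its test (adjusted P = 0.000291). In the nkd1 o2 background hsftf17 rose when nkd2 was lost (log2FC 2.65, adjusted P = 0.00039).

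Heat shock protein genes, which encode chaperones and are classical targets of such factors, moved less. None of the 5 annotated was a DEG at 16 DAP (4.29% of all genes were), 3 had an unadjusted P below 0.05 (27.3% of all genes), and 1 passed by adjusted P (13.8% of all genes). The mitochondrial heat shock protein gene HSP70-9 (Zm00001d006036) had 48.1, 43.1, 46.4 and 63.5 CPM in nkd2, against 73.1, 61.7, 69.9 and 108 CPM in WT (log2FC -0.64 ± 0.14, adjusted P = 0.00217). The HSP70-8 gene (Zm00001d048073) had 172, 188, 173 and 23.1 CPM in nkd2, against 180, 287, 261 and 354 CPM in WT (log2FC -0.96, adjusted P = 0.118). The value of 23.1 CPM was that of nkd2 replicate 4, which was also the lowest for hsftf17, and without it the log2FC of HSP70-8 was -0.61 (adjusted P = 0.235). A gene of the DnaJ co-chaperone family (Zm00001d009027) was a DEG just past the limit, with 10.7, 9.98, 12.7 and 14.2 CPM in nkd2, against 24.2, 21.4, 20.4 and 30.5 CPM in WT (log2FC -1.02 ± 0.17, adjusted P = 0.000103).

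Heat-related transcripts varied strongly between libraries of the mutant at the preceding timepoint. At 12 DAP, hsftf17 had 68.9, 63.4, 1.05 and 2.02 CPM in nkd2, against 2.71, 2.1, 1.88 and 1.6 CPM in WT. Only replicates 1 and 2 of nkd2 were high. With them the log2FC at 12 DAP was 4.03 (adjusted P = 0.00129), and without them it was -0.43 (adjusted P = 0.665). The same 2 libraries were high for the small heat shock protein gene HSP16.9 (Zm00001d039933), which had 55.1, 51.5, 1.82 and 2.05 CPM in nkd2 at 12 DAP, against 1.45, 0.216, 0.798 and 0.0550 CPM in WT. The cause of this split among the nkd2 libraries was not tested.

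**Figure D4:**
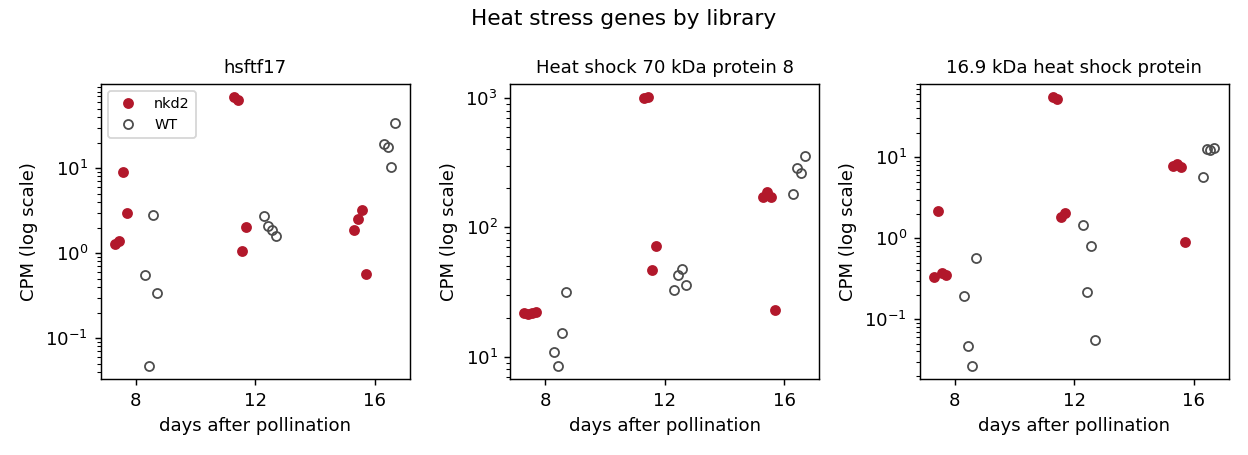
Levels of hsftf17, HSP70-8 and HSP16.9 (CPM, log axis) in each library at 8, 12 and 16 DAP, with filled points for nkd2 and open points for WT. At 12 DAP 2 nkd2 libraries lie far above the other 6, and at 16 DAP all 4 nkd2 libraries lie below WT for hsftf17.

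Of the 662 lower DEGs, 643 were tested at 12 DAP, and 31 (4.82%) were higher DEGs in nkd2 there, against 1.1% of all genes. Of the 360 higher DEGs tested at 12 DAP, 2 (0.556%) were lower there, against 1.15% of all genes. The 31 had a median log2FC of -1.99 at 16 DAP and 2.34 at 12 DAP. Only 3 of them remained higher DEGs at 12 DAP when replicates 1 and 2 of nkd2 at 12 DAP were left out, and their median at 12 DAP was then -0.07 (2.18% of all genes were DEGs in that fit). The fall at 16 DAP does not use those libraries. In nkd1 nkd2 relative to nkd1 at 16 DAP, 30 of the 31 were lower DEGs, with a median of -2.51, where lower DEGs made up 4.07% of all genes. In nkd2 o2 relative to o2, the median of the 31 was -0.11. In nkd1 nkd2 o2 relative to nkd1 o2, most of the 31 had a log2FC above 0, and the values ran from -2.01 to 3.65. The most abundant of the 31, Zm00001d012420, had 479, 499, 518 and 291 CPM in nkd2, against 1035, 1042, 1109 and 1209 CPM in WT (log2FC -1.30 ± 0.20, adjusted P = 4.31e-05). It was also 1 of the 3 that remained higher at 12 DAP. Zm00001d038806, which was not, had 76.3, 62.3, 61.4 and 74.6 CPM in nkd2, against 547, 403, 437 and 985 CPM in WT (log2FC -3.11 ± 0.38, adjusted P = 1.57e-06).

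Histone genes leaned downward. Core histones package newly replicated DNA, and their genes are expressed mainly in dividing cells. The list also held the histone H1 gene hon101 (log2FC -0.32, adjusted P = 0.297), which is not a core histone gene. Of the 12 tested, 11 had a log2FC below 0, 2 were lower DEGs (16.7%, beside 2.73% of all genes), and 1 more was lower by adjusted P (7.04% of all genes were), with a median of -0.43 beside 0.01 for all genes. A histone H4 gene (h4c7, Zm00001d002543) had 2.14, 1.92, 2.25 and 9.06 CPM in nkd2, against 19.5, 10.4, 13.6 and 7.49 CPM in WT (log2FC -1.73 ± 0.41, adjusted P = 0.00439). The groups overlapped through replicate 4 of both groups, and without nkd2 replicate 4 the log2FC was -2.60 (adjusted P = 2.46e-05). A histone H3.2 gene (h3c2, Zm00001d003725) had 1.5, 1.51, 2.20 and 4.32 CPM in nkd2, against 5.28, 5.76, 6.07 and 4.16 CPM in WT (log2FC -1.16 ± 0.35, adjusted P = 0.0272), and its call was lost when any 1 of 5 other libraries was left out (adjusted P up to 0.0975). Without nkd2 replicate 4, 4 of the 12 were lower DEGs. Because histone genes are near-identical copies, reads could be split between them by the counting. Both genes rose when nkd2 was lost in the nkd1 background, with log2FC of 1.35 and 1.85, and in the o2 background, with log2FC of 1.65 and 1.05 (adjusted P between 0.000147 and 0.0314).

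Another 3 described DEGs belong to the phenylpropanoid pathway and were higher in nkd2, and they were grouped after their values were seen. Phenylalanine ammonia lyase opens this pathway, trans-cinnamate 4-monooxygenase follows it, and fht1 encodes flavanone 3-hydroxylase on the branch to flavonoids and anthocyanins. pal6 (Zm00001d003015) had 2.54, 2.03, 1.84 and 10.02 CPM in nkd2, against 0.591, 0.570, 0.656 and 0.721 CPM in WT. It was higher in every nkd2 library, with a log2FC of 2.69 ± 0.51 (adjusted P = 0.00051), and without nkd2 replicate 4 the log2FC was 1.75 (adjusted P = 0.00617). fht1 (Zm00001d001960) had 1.5, 1.69, 1.61 and 10.4 CPM in nkd2, against 0.131, 0.190, 0.131 and 0 CPM in WT (log2FC 4.99 ± 1.06, adjusted P = 0.0027), and without nkd2 replicate 4 the log2FC was 3.74 (adjusted P = 0.0126). Trans-cinnamate 4-monooxygenase (Zm00001d009858) had 5.50, 6.84, 5.58 and 12.6 CPM in nkd2, against 4.30, 2.53, 3.48 and 2.24 CPM in WT (log2FC 1.28 ± 0.31, adjusted P = 0.00578). Without nkd2 replicate 4 its log2FC was 0.93 (adjusted P = 0.0384), which is within the limit for a DEG. All 3 rose in the nkd1 background as well, with log2FC of 2.24, 8.90 and 1.95 (adjusted P = 0.000900, 7.14e-05 and 2.32e-05). The fitted value of fht1 there rests on a group that was almost without reads, so its size depends on the prior count. In the o2 background pal6 and trans-cinnamate 4-monooxygenase did not pass, with log2FC of 0.96 and 0.06 (adjusted P = 0.212 and 0.932), and fht1 had no read in either group. c1, the MYB regulator of the aleurone anthocyanin pathway, was under 1 CPM in every library and did not pass (log2FC 0.82, adjusted P = 0.580).

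Of the 46 DEGs with a description, 20 were higher. The transcription factor with the largest rise was mybr111 (Zm00001d026017), a homolog of the Arabidopsis clock-related MYB gene REVEILLE 1. It had 10.2, 10.2, 8.24 and 9.71 CPM in nkd2, against 0.624, 0.886, 0.230 and 0.801 CPM in WT (log2FC 3.91 ± 0.61, adjusted P = 4.99e-05), and its identifier lies 96 numbers from that of nkd2. Protein GRIP (Zm00001d006357), a protein of the Golgi apparatus, averaged 13.2 ± 0.887 CPM in nkd2 and 5.39 ± 0.581 CPM in WT (SD, n = 4 each, log2FC 1.29, adjusted P = 4.46e-06). kcbp1 (Zm00001d001928), which encodes a calmodulin-binding kinesin, averaged 7.21 ± 1.36 CPM in nkd2 and 2.52 ± 0.506 CPM in WT (log2FC 1.52, adjusted P = 7.43e-05). nlp15, wrky71 and nactf78, which encode transcription factors of the NIN-like, WRKY and NAC families, rose by log2FC of 1.57, 1.22 and 1.21. The calls of all 3 were lost under at least 1 alternative, that of nactf78 under 6.

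The other 26 described DEGs were lower. A cytochrome P450 gene (Zm00001d024574) had 3.54, 3.28, 2.39 and 3.53 CPM in nkd2, against 16.4, 18.7, 18.0 and 16.7 CPM in WT (log2FC -2.46 ± 0.39, adjusted P = 6.73e-05). Proline oxidase (Zm00001d047124), which starts proline breakdown in mitochondria, had 11.8, 18.1, 8.08 and 5.99 CPM in nkd2, against 38.5, 38.9, 42.7 and 51.7 CPM in WT (log2FC -1.96 ± 0.47, adjusted P = 0.00539). A pyruvate dehydrogenase kinase gene (Zm00001d007578), whose product inactivates pyruvate dehydrogenase, averaged 0.328 ± 0.126 CPM in nkd2 and 2.90 ± 1.11 CPM in WT (SD, n = 4 each, log2FC -3.14, adjusted P = 2.15e-05). In none of these 3 genes did the groups overlap. The vacuolar aquaporin gene TIP1-1 (Zm00001d027652) had 33.2, 34.7, 35.9 and 35.6 CPM in nkd2, against 77.5, 88.3, 95.3 and 70.2 CPM in WT (log2FC -1.25 ± 0.31, adjusted P = 0.00637). A metallothionein-like gene (Zm00001d039914), of a family that binds metal ions, averaged 1.61 ± 0.978 CPM in nkd2 and 8.22 ± 2.98 CPM in WT (log2FC -2.35, adjusted P = 2.17e-05).

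The lower DEG with the largest fitted change among those described was a monothiol glutaredoxin-S17 gene (Zm00001d006437). It had no read in any nkd2 library and 3.61, 4.56, 3.31 and 0 CPM in WT. The mean in WT was at least 33.9-fold higher than a floor of 3 counts per library in nkd2 allows. Because 1 WT library also had none, presence of this transcript differed among WT ears. In the o2 background the gene moved the other way, with a log2FC of 7.98 (adjusted P = 0.00345).

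Other lists held no DEG. None of the 4 protein body, 6 cell wall, 6 tested auxin, 3 late embryogenesis and abscisic acid and 3 starch and sugar genes was called. Over all genes 4.29% were, and lists this small could hold none at that share. By adjusted P alone, pectinesterase QRT1 (Zm00001d022104, log2FC -0.51, adjusted P = 0.0149) and the auxin-responsive gene SAUR33 (Zm00001d032094, log2FC -0.86, adjusted P = 0.0188) were lower, where 7.04% of all genes were. Without nkd2 replicate 4 the call of SAUR33 was lost (log2FC -0.64, adjusted P = 0.0655). The study's coexpression module M1, built on libraries that include these, had 494 tested genes, of which 16 were higher and 12 were lower DEGs. That was 5.67%, close to the 4.29% of all genes, and the median log2FC was -0.00.

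Genes with identifiers near that of nkd2 were called more often than the rest. Identifiers of this annotation are numbered along the chromosomes, so the number approximates order but not distance. Within 100 numbers on either side of nkd2, 24 of 99 tested genes were DEGs (24.2%, nkd2 itself left out), of which 18 were higher, against 4.23% of the remaining genes. Within 25 numbers the share was 32.1% (9 of 28), and within 250 numbers it was 17.4% (46 of 264). The share was 15.4% in the 100 numbers from -200 to -100, 32.7% from -100 to 0, and between 14.0% and 18.9% in each 100 numbers up to 400 after nkd2. From 400 to 500 after nkd2 it was 1.67%, and before -200 it was at most 5.08% as far as -500. Of 1018 bins of 50 numbers over the genome, 12 held 8 or more DEGs, where the median bin held 1, and 6 of the 12 lay between numbers 25950 and 26449, around nkd2. The other 6 lay elsewhere, with 29.6% to 36.0% of their genes called.

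**Figure D5:**
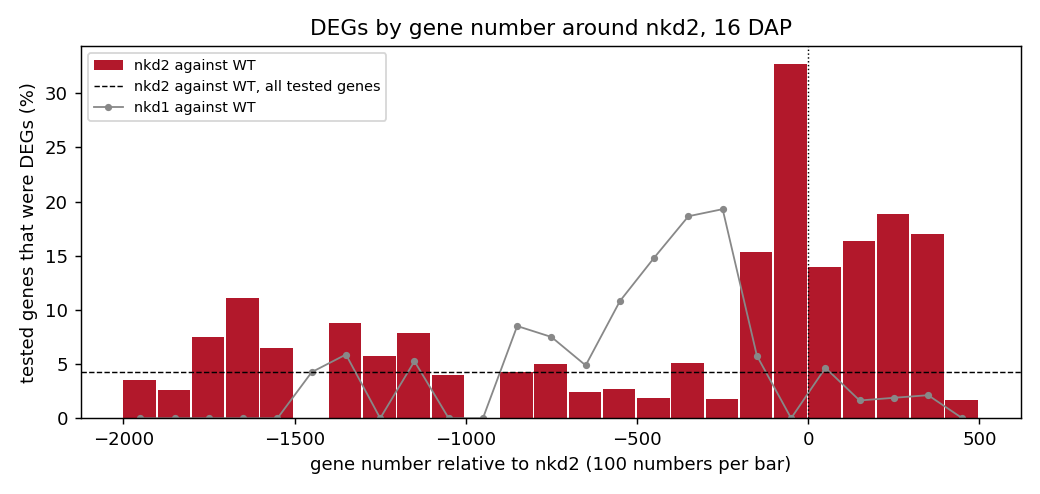
Percentage of tested genes that were DEGs (y axis) per 100 gene numbers from -2000 to 500 relative to nkd2 (x axis), as bars for nkd2 over WT and a line for nkd1 over WT (1.26% over all genes), with 4.29% over all genes dashed. The bars reach 32.7% just before nkd2 and stay between 14.0% and 18.9% up to 400 numbers after it.

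The excess near nkd2 was present wherever nkd2 was lost. In contrasts that share no library with the one described, 20.2% of the genes within 100 numbers were DEGs in nkd2 o2 relative to o2, 27.3% in nkd1 nkd2 relative to nkd1, 21.2% in nkd1 nkd2 o2 relative to nkd1 o2, 17.9% in nkd2 relative to WT at 12 DAP and 13.4% at 8 DAP. Over all genes, the shares of DEGs in those contrasts were 4.72%, 12.2%, 11.6%, 2.25% and 5.07%. In nkd1 relative to WT, where nkd2 was not lost, 2.02% of the genes within 100 numbers were DEGs, but 7.02% within 500 numbers were, against 1.14% of the rest, and the share was 14.8% to 19.3% in each 100 numbers from -500 to -200. Loss of nkd2 function and a chromosome segment carried along with the mutant allele cannot be told apart for these genes.

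Some of the largest changes were all or nothing. Of the 12 genes named for the largest rise, 3 had no read in any WT library, and of the 12 named for the largest fall, 3 had none in any nkd2 library. Zm00001d026295, 182 numbers after nkd2, had 360, 341, 329 and 186 CPM in nkd2 and no read in any WT library, at least 2951-fold higher against a floor of 3 counts per library. It was likewise a higher DEG at 8 and 12 DAP and in the 3 other backgrounds. Zm00001d021910, which lies far from nkd2 in number, had 13.9, 12.8, 10.97 and 11.4 CPM in nkd2 and none in WT, at least 119-fold higher. Zm00001d026056, 57 numbers before nkd2, had 6.65, 5.25, 6.13 and 16.3 CPM in nkd2, against 215, 238, 224 and 232 CPM in WT (log2FC -4.73 ± 0.25, adjusted P = 3.6e-14). It also fell in nkd2 at 8 and 12 DAP, but in the o2 and nkd1 backgrounds its log2FC were 0.04 and -0.23 (adjusted P = 0.940 and 0.425).

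Calls at 16 DAP recurred in part at the earlier timepoints, in separate libraries. Of the 378 higher DEGs, 360 were tested at 12 DAP and 85 (23.6%) were higher DEGs there, against 1.1% of all genes, with 2 lower. These made up 31.6% of the higher DEGs of 12 DAP. At 8 DAP, 63 of 346 (18.2%) were higher, against 0.715% of all genes. Of the 662 lower DEGs, 79 of 643 (12.3%) were lower at 12 DAP, against 1.15% of all genes, and 102 of 619 (16.5%) were lower at 8 DAP, against 4.35%. In all, 85 genes were called the same way at the 3 timepoints, 44 higher and 41 lower.

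The effect of losing nkd2 depended on the genotype at the other genes. In the nkd1 background, 97 of the 378 higher DEGs (25.7%) were also higher, where 8.12% of all genes were, and 151 of the 662 lower DEGs (22.8%) were also lower, where 4.07% were. Opposite calls there were 44 of the higher DEGs (11.6%), which were lower, and 68 of the lower DEGs (10.3%), which were higher. In the o2 background, 50 of the higher DEGs (13.2%) were also higher, where 3.01% of all genes were, and 31 (8.20%) were lower, where 1.71% were. For the lower DEGs the direction was more often opposite in the o2 background, with 49 lower (7.40%, against 1.71% of all genes) and 114 higher (17.2%, against 3.01%), and their median log2FC there was 0.42. In the nkd1 o2 background 45 of them were lower (6.80%, against 3.88% of all genes) and 104 higher (15.7%, against 7.72%). The difference of the nkd2 effect between the o2 and WT backgrounds had an adjusted P below 0.05 and a size above 1 on the log2 scale for 2272 genes (9.37% of all tested), and the difference between the nkd1 and WT backgrounds did for 2169 (8.95%). Only 28 genes were called the same way in all 4 backgrounds at 16 DAP, 22 higher and 6 lower, and 13 of the 28 lay within 500 numbers of nkd2. Called the same way in every background and at every timepoint were 15 genes, 7 of them within 500 numbers, nkd2 included.

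From 12 to 16 DAP in nkd1, more of the lower DEGs increased than decreased, and most were called neither way. In the nkd1 libraries, which the comparison of nkd2 and WT does not use, 182 of the 662 lower DEGs (27.5%) were higher DEGs at 16 than at 12 DAP and 34 (5.14%) were lower, where 5.10% and 8.64% of all genes were, with a median log2FC of 0.62 beside -0.06 for all genes. Of the 378 higher DEGs, 21 (5.56%) were higher at 16 than at 12 DAP and 59 (15.6%) were lower, with a median of -0.27.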

How the data were processed

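RNA from 96 endosperm pools was sequenced, and the authors mapped it to the B73 RefGen_v4 genome. Their processing notes name HISAT2 2.1.0, SAMtools 1.9, StringTie 1.3.6 and HTSeq 0.11.1. The deposited values are raw counts per gene, one table per library, with no normalization. The counting mode, strand setting and annotation release were not given in the sources used here, so reads of overlapping or near-identical genes may have been split or dropped. The special rows of the tables (reads on no feature, ambiguous, low quality, not aligned, not unique) were left out of library sizes and tests. Gene reads were 31327665 to 48394247 per library of nkd2 and WT at 16 DAP.

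Genes were filtered with filterByExpr and scaled by trimmed mean of M-values, and nkd2 was compared with WT by edgeR 4.0.16 (R 4.3.3, limma 3.58.1) with its quasi-likelihood test, in 1 fit of the 32 libraries of 16 DAP with Benjamini-Hochberg adjustment over 24239 genes. Fits of 8 and 12 DAP used their own 32 libraries, and the change from 12 to 16 DAP in nkd1 used all 96. A DEG had an adjusted P below 0.05 and an absolute log2FC above 1. Read shares were compared by exact permutation tests (scipy 1.17.1). A pseudocount of 0.5 CPM was used for distances. Alternatives included DESeq2 1.42.0. The test was tested on simulated counts. numpy 2.4.6, pandas 2.3.3 and matplotlib 3.10.9 were used with Python 3.11.15.

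The genes named were the mutated genes, the DEGs with the largest changes, the most abundant, those with a description, transcription factors, those near nkd2 and list members that passed. Members and lists were chosen with earlier results of these data known. Names came from the study's gene lists, with 883 identifiers described, and 0 identifiers matched the RefSeq gene table, whose assembly is another one. A planned promoter motif count was therefore not run, and no sequence is printed.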

Additional observations from a re-analysis of the deposited data

Results flagged for a closer look

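Libraries of 1 group that lay far from their other 3 are given first, by a test that flags about 1 in 20 groups by chance. nkd2 replicate 4 accounted for 10 of these 16 values. It was high for fht1 (10.4 CPM), pal6 (10.02 CPM), h4c7 Zm00001d002543 (9.06 CPM), h4c7 Zm00001d002546 (25.5 CPM), h3c2 Zm00001d003730 (11.1 CPM), o2 (878 CPM) and mybr13 (15.1 CPM). It was low for gbf1 (41.3 CPM), HSP16.9 Zm00001d039933 (0.904 CPM) and HSP70-8 Zm00001d048073 (23.1 CPM). nkd2 replicate 1 was high for zp2 (51.7 CPM), and nkd2 replicate 2 was high for wrky71 (3.90 CPM). WT replicate 4 was high for zp3 (26963 CPM), low for his2b3 (2.20 CPM) and low for the CBL-interacting kinase gene Zm00001d007167 (0.0801 CPM). WT replicate 1 was low for HSP16.9 Zm00001d039933 (5.71 CPM).

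Effects of nkd2 that differed between conditions came from tests of the difference itself. The log2FC of hsftf17 was lower at 16 than at 12 DAP by -7.33 (edgeR adjusted P = 8.22e-06), and without nkd2 replicates 1 and 2 of 12 DAP by -2.86 (adjusted P = 0.123). Between the o2 and WT backgrounds at 16 DAP, the effect differed by 3.95 for hsftf17 and by -1.99 for nkd1. By an adjusted P below 0.05 and a size above 1, it differed for 2272 genes between the o2 and WT backgrounds and for 2169 genes between the nkd1 and WT backgrounds.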

How the results depend on the processing

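The count of 1040 DEGs stayed within 1.5 times under every alternative that kept the limits on P and fold change. It was 1172 by DESeq2, 1035 with DESeq2 size factors, 1034 with upper quartile scaling, 964 without the filter on low counts, 827 with only the 8 libraries, 1196 with all 96 libraries, and 854 to 1131 with 1 library left out, of which 299 to 371 were higher and 523 to 760 lower. The genes called changed more than their number. The 8-library fit called 716 of the 1040 again (68.8%), and the fits with 1 library left out called 73.8% to 82.5% of them again. Without nkd2 replicate 4, 858 of the 1040 were called again. Without replicate 4 of both groups, chosen after seeing the data, 1035 were called, 709 of them shared. With the adjusted P alone the counts were 3343 in all, 1637 higher and 1706 lower. The replicate numbers did not pair the samples, since same-numbered nkd2 and WT libraries deviated with r from -0.17 to -0.10 across 12469 genes, and a replicate block gave 997 DEGs, of which 957 were shared. The genes lower at 16 DAP and higher at 12 DAP numbered 4 in place of 31 (3 of them among the 31) without replicates 1 and 2 of nkd2 at 12 DAP, an alternative chosen after seeing the data. The share of DEGs near nkd2 was 12.2% within 500 numbers. With 1 library left out, the difference in the zein share ran from -0.678 to -0.395 percentage points, passing the exact test only without WT replicate 3, at -0.678, and that in the 10 most abundant genes from -6.14 to -5.35. By adjusted P alone, 134 of 187 named genes gave the same result in each of the 16 settings that tested them. These include genes that passed in no setting, such as pdk2, and the limit on fold change was not applied here. Of the others, 37 lost and 16 gained a pass under at least 1 setting, and 0 reversed. Depth did not limit the abundant genes, but 149 higher and 245 lower DEGs had a mean under 1 CPM, where counting error is large.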
